A study of Mus musculus with 18 samples.

Results

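AU-rich elements are short runs of A and U in the 3′ UTR of many cytokine, chemokine and early response mRNAs, and the proteins that bind them set how long these mRNAs last. Zfp36 (tristetraprolin) and its relatives Zfp36l1 and Zfp36l2 bind the element through zinc fingers and recruit the deadenylase that removes the poly(A) tail. Khsrp (KSRP) also promotes decay of such mRNAs, Elavl1 (HuR) mostly stabilises them, and Hnrnpd (AUF1) has been described in both roles. In T cells the ZFP36 proteins restrain cytokine output, and PMA, ionomycin and actinomycin D act on the kinase pathways and the transcription that control them.

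The RNA and the pooled protein occupancy of these 6 genes were followed in mouse T cells. The members were the rows for Zfp36, Zfp36l1, Zfp36l2, Elavl1, Hnrnpd and Khsrp, 6 of 43432 genes in the RNA-seq table, and the 68 of 27729 GCLiPP peaks named for them. GCLiPP crosslinks RNA to protein with UV light, purifies the bound fragments of all proteins together and sequences them, so a peak marks occupied RNA without naming the protein on it. The series held 18 libraries from C57BL/6 mice, 10 of GCLiPP and 8 of RNA-seq. Th2 cultures were CD4 T cells grown with IL-4, anti-Ifn-gamma and IL-2, and CD8 cultures were grown with IL-12 and IL-2. Both were activated through CD3 and CD28 and then moved to uncoated dishes, with a labelled 5 days of culture. Stimulated cells had PMA and ionomycin, for a labelled 4 h before harvest, and resting cells did not. Where the drug was given, the methods place it after this stimulation, so treated stimulated cells may have been harvested later than 4 h. The RNA-seq libraries covered each cell type, resting or stimulated, untreated or given actinomycin D, which blocks transcription, with 1 library per condition. UV light of 254 nm and 8000 mJ is recorded for the RNA-seq libraries as well as for GCLiPP. The methods describe RNA-seq on part of the oligo-dT selected RNA of the GCLiPP procedure. All cultures had therefore been activated beforehand, "resting" means not restimulated, and the methods describe cells of 3 mice per preparation. The methods list several lengths of drug treatment without saying which the libraries had, and the labels give none. The drug cannot be told apart from any other difference in how the treated cells were lysed. In stimulated cells it also cannot be told apart from a longer time since stimulation began. GCLiPP libraries were 3 per state for Th2 and 2 per state for CD8 cells, but the peak list pooled all of them, so the peaks have no value per condition.

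Library totals ran from 24154849 to 31042504 reads over genes. T cell markers were high in both cell types. The 5 Th2 markers summed to 45157 to 102124 normalised reads in Th2 libraries and 626 to 818 in CD8 libraries. The 6 CD8 markers summed to 97240 to 155937 in Th2 libraries, most of it Gzmb, and to 277766 to 515025 in CD8 libraries. Erythroid markers were at or near 0. The values are gene reads divided by 1 scaling factor per library, called normalised reads here. In bulk cultures, fewer cells with an RNA and less of that RNA per cell cannot be told apart.

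The elements under study also occur in the members' own mRNAs. The motif searched was the pentamer ATTTA, the heptamer TATTTAT that contains it and the nonamer TTATTTATT that contains both, on the transcribed strand, in the longest annotated coding 3′ UTR of each gene (GENCODE M21, mm10). All 6 genes lie on the minus strand. Each line gives 30 bases of a 3′ UTR, 5′ to 3′, with the pentamer in capitals. They show all 3 sites of Zfp36, from each other gene with a covered site 1 site under its highest-scoring peak that holds the pentamer, and 1 site of the uncovered Elavl1 cluster.
Zfp36, chr7:28376965-28376994, under a peak: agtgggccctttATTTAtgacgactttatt
Zfp36, chr7:28376950-28376979, across the edge of a peak: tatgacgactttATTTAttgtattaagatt
Zfp36, chr7:28376925-28376954, under a peak: agattttatagtATTTAtatatattgggtc
Zfp36l1, chr12:80108440-80108469, under a peak: ataaaaaagcttATTTAacttatcaaaacg
Zfp36l2, chr17:84184679-84184708, under a peak: attgtatgtaatATTTAtttcattaatttc
Elavl1, chr8:4288680-4288709, under a peak: gtttccaagaccATTTAacctagcttgaat
Elavl1, chr8:4285775-4285804, under no peak: atttatttatttATTTAtttttatttattt
Khsrp, chr17:57021585-57021614, under a peak: aaaatagcaagaATTTAacctctgccccgc

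The 3 Zfp36 pentamers, which start 579, 594 and 619 bases after the stop codon, were all part of the heptamer; 2 lay wholly inside a peak and the middle one ran across the edge of one. Zfp36l1 had 9 pentamers, of which 3 lay in peaks, and Zfp36l2 had 5, of which 4 did. Elavl1 had the most with 17, and 8 of them were nonamers packed between 3799 and 3845 bases after the stop codon. None of these 8 lay in a peak, and only 1 of the 17 pentamers did, the one printed above. Of the 17, 14 lay beyond the end of the shortest annotated coding 3′ UTR of Elavl1, which measures 1260 bases against 4221 for the longest. Hnrnpd had 10 pentamers, none in a peak and none in a heptamer, and all 10 lay beyond its shortest coding 3′ UTR of 365 bases. The RNA-seq table ends Hnrnpd at chr5:99958426, whereas the 3′ UTR used here runs on to 99955935. Its pentamers from 3012 bases after the stop codon onwards lie outside those deposited bounds. Whether the peak search reached them was not stated. Khsrp had 1 pentamer, under a peak.

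GCLiPP occupancy differed widely among the 3′ UTRs. Khsrp carried 23 peaks, and 1.09% of the 6689 genes with a peak had as many or more. Zfp36l1 and Zfp36l2 carried 15 each, and 4.17% of genes had as many or more. Elavl1 had 7, Zfp36 had 6 and Hnrnpd had 2, while the median gene had 2. Peaks covered 78.3% of the Khsrp 3′ UTR, 51.5% to 52.4% of the ZFP36 family 3′ UTRs, 11.6% of the longest Elavl1 3′ UTR and 2.41% of the longest Hnrnpd 3′ UTR. Part of that Hnrnpd 3′ UTR lies outside the gene's bounds in the RNA-seq table. The 3 ZFP36 mRNAs were thus covered to a like extent although their peak numbers differed. Peak calling used a minimum depth, so the number of peaks also depends on how abundant an mRNA is. It also required a minimum share of the highest depth in the same 3′ UTR. The part of abundance in these peak numbers was not tested.

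**Figure D1:**
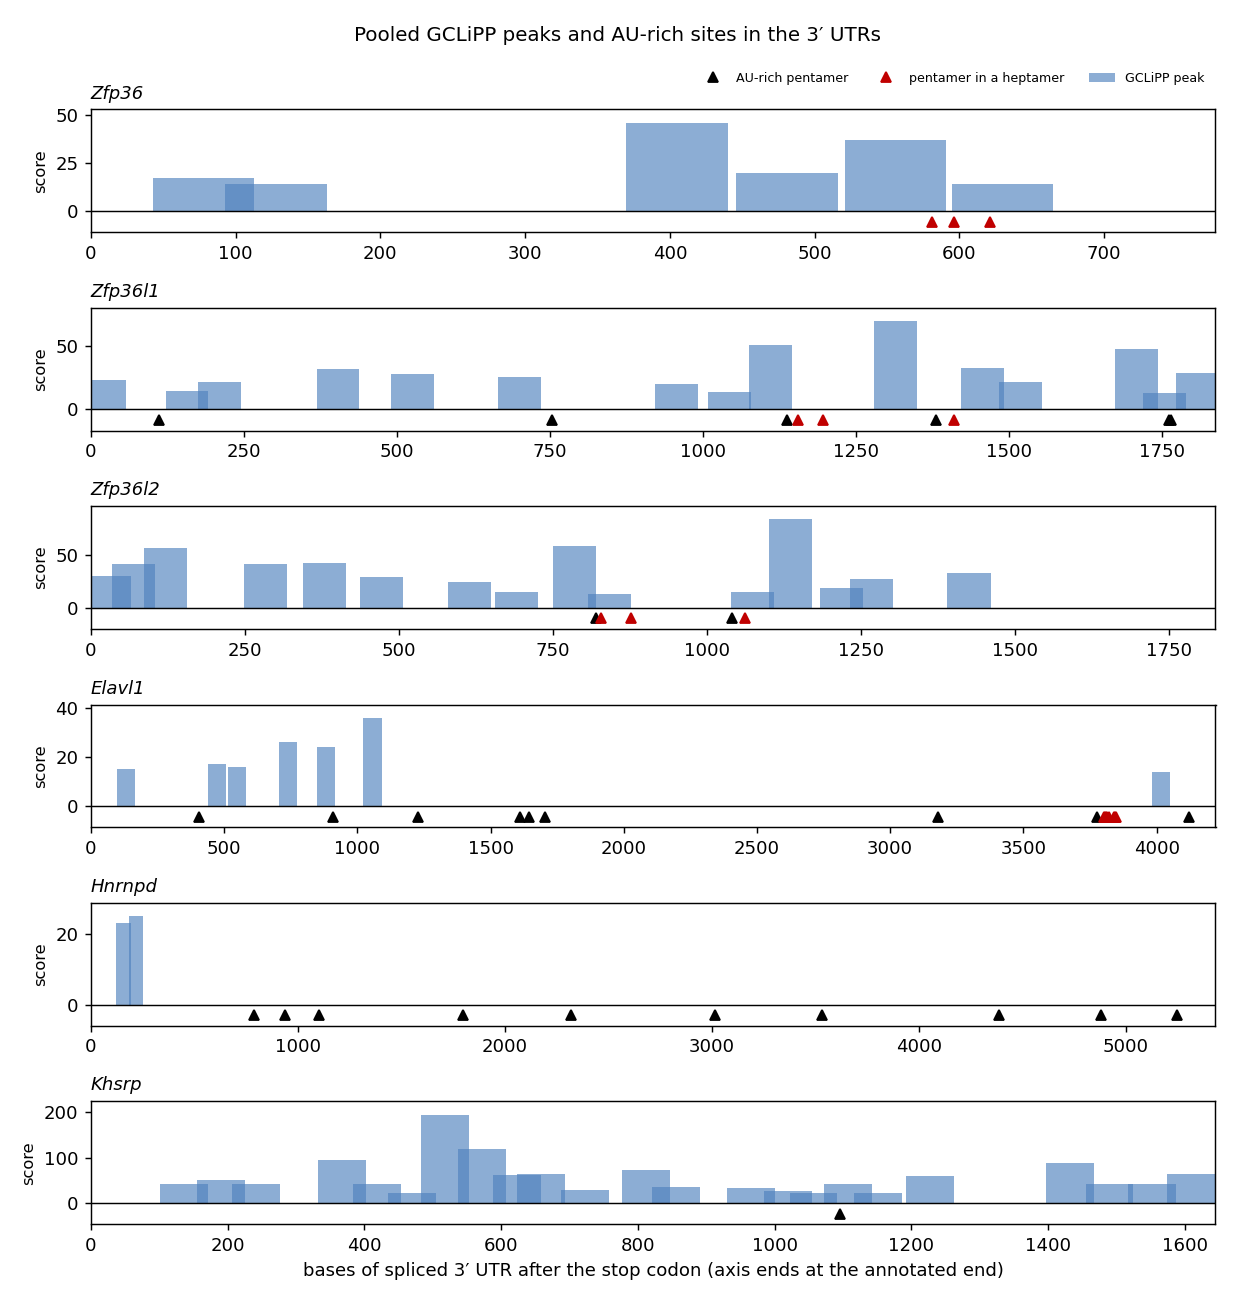
GCLiPP peaks of the 6 genes along the spliced 3′ UTR. Each blue bar is a peak of 70 bases, placed by bases after the stop codon, with the authors' score as its height, and triangles mark ATTTA (black) or ATTTA within TATTTAT (red). Khsrp is covered nearly throughout, the Elavl1 peaks lie mostly in the proximal part with the red cluster at 3799 to 3845 bases uncovered, and the 2 Hnrnpd peaks lie close to the stop codon.

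The score of a peak is the authors' whole number, and its meaning was not given in the sources used here. The median score was 29.5 over the 68 peaks and 24 over the whole list. Of the 68 peaks, 43 exceeded the median of the list (63.2%, against 47.8% of all peaks, since many tie). The highest peak of each gene scored 195 in Khsrp, 83 in Zfp36l2, 70 in Zfp36l1, 46 in Zfp36, 36 in Elavl1 and 25 in Hnrnpd. None of these 6 highest peaks held the pentamer. Khsrp dominated the list, with 20 of its 23 peaks above the list's median, and the peak of 195 exceeded its next highest, 120, which overlaps it. The central 30 bases of the highest peaks in Khsrp, Zfp36l2 and Zfp36l1 are printed to show the sequence under them, with a run of at least 5 T in capitals, found only in that of Zfp36l1.
Khsrp, chr17:57022164-57022193: acctacctcacaggggtgttgtggggacac
Zfp36l2, chr17:84184606-84184635: atgcaatcttgatgctgtggaagtggtttg
Zfp36l1, chr12:80108263-80108292: ttaatatattattcttcaacaacaTTTTTg

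Sequence could be read for 67 of the 68 peaks, since the last Zfp36l1 peak runs past the annotated end of the mRNA. ATTTA occurred in 8 of the 67 (11.9%) and in 7.90% of all peaks. TATTTAT occurred in 4 (5.97%) and in 1.32% of all peaks, and these 4 were in Zfp36 and Zfp36l2. The nonamer occurred in 1, a Zfp36l2 peak with a score of 13. The 8 peaks with the pentamer scored 13 to 51 with a median of 19.5, and the other peaks had a median of 32. Among the 42 member peaks in the upper part of the scores, 3 held the pentamer (7.14%, against 7.65% of all such peaks). The pentamer was therefore more frequent than in the list only when low-scoring peaks were counted. The poly(A) signal AATAAA occurred in 1 member peak, the last in Khsrp (1.49%, against 6.56% of all peaks). Peaks of 1 gene share an mRNA, so these counts carry no test.

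Levels of RNA per kilobase of the longest coding transcript placed the members in a narrow range. Over the 8 libraries the mean was 1281 ± 191 normalised reads per kilobase for Hnrnpd (SD, n = 8), 1270 ± 648 for Zfp36l2 and 970 ± 221 for Khsrp. It was 781 ± 174 for Elavl1, 586 ± 374 for Zfp36l1 and 564 ± 291 for Zfp36. Each gap between neighbours in this order was smaller than the larger of their SDs, but some exceeded the smaller. The SD here is spread over conditions. The order depends on which transcript is used. The longest Hnrnpd transcript reaches past the gene's bounds in the RNA-seq table, which can lower its value per kilobase. Per kilobase of the shortest annotated coding transcript, Hnrnpd reached 5675, Elavl1 1936 and Zfp36l1 906. The ZFP36 family varied most: the highest library exceeded the lowest 8.54-fold for Zfp36l1, 8.26-fold for Zfp36l2 and 4.2-fold for Zfp36, but only 1.62-fold to 2.05-fold for Hnrnpd, Elavl1 and Khsrp.

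Each member was then compared between cells with and without actinomycin D in 4 matched pairs. The question was how member RNA stood relative to other RNA once transcription was blocked. Values are relative within a library, so a rise means that an RNA took a larger share.

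Zfp36, whose own mRNA is short-lived in many cells, stood higher with the drug. In normalised reads it went from 708 to 1737 in resting Th2, from 2237 to 2976 in stimulated Th2, from 722 to 1066 in resting CD8 and from 1100 to 2050 in stimulated CD8 cells. All 4 pairs rose, although treated and untreated libraries overlapped because stimulation also mattered. The log2 difference was 0.79 ± 0.18 (SE, 4 pairs, adjusted p = 0.0183, limma).

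Zfp36l1 and Zfp36l2 moved the other way. Zfp36l1 went from 1410 to 1228 in resting Th2, from 3944 to 2533 in stimulated Th2, from 1120 to 462 in resting CD8 and from 2317 to 1004 in stimulated CD8 cells. It fell in all 4 pairs, least in resting Th2 cells, and the log2 difference was -0.83 ± 0.21 (adjusted p = 0.0255, limma). Zfp36l2 went from 7467 to 2515 in resting Th2, from 6655 to 5632 in stimulated Th2, from 5708 to 905 in resting CD8 and from 4373 to 2617 in stimulated CD8 cells. It also fell in every pair, and the resting pairs showed the deep drops, to 33.7% and 15.8% of the untreated level against 84.6% and 59.8% in stimulated cells. The log2 difference was -1.30 ± 0.38 (adjusted p = 0.0371, limma), and -0.85, not called, without the CD8 resting pair.

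Khsrp, Elavl1 and Hnrnpd did not pass the test as the values were deposited. Khsrp was lower in all 4 pairs (3477 to 2954, 4357 to 2490, 4733 to 3997 and 5096 to 3760, in the same order of pairs), by -0.43 ± 0.14 (adjusted p = 0.0562, limma). Elavl1 was lower in all 4 pairs (3671 to 3435, 5618 to 4521, 4535 to 3528 and 6219 to 4357), by -0.32 ± 0.13 (adjusted p = 0.0857). Hnrnpd was higher in all 4 pairs (6337 to 8207, 7757 to 9475, 9093 to 10244 and 8559 to 10113), by 0.27 ± 0.11 (adjusted p = 0.0984), a direction that turned when libraries were scaled to ribosomal protein genes and a difference that was called, at 0.35, after quantile normalisation. The intervals of these differences (95%, unadjusted) ran from -0.78 to -0.082 for Khsrp, from -0.62 to -0.019 for Elavl1 and from 0.0016 to 0.54 for Hnrnpd.

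Thus 3 of the 6 members were called, 1 higher and 2 lower, where 38.7% of all genes tested were called, 16.8% higher and 21.9% lower, so the number called is near the background. Scaled to the summed value of 72 ribosomal protein genes, the median of all genes shifted to -0.62 and the calls over all genes were split 46 higher to 4599 lower, against 1842 to 2403 as deposited. On that scale Zfp36 was at 0.17 and not called, and 4 members were called, all lower. Relative to the median gene as deposited, Zfp36 was higher and Zfp36l1 and Zfp36l2 lower. Scaling by 1 factor per library shifts all genes nearly alike, so it could not change this and is no check of it. The number of members called was 0 without the CD8 stimulated pair, 1 without the CD8 resting pair (Zfp36), 1 without the Th2 resting pair (Zfp36l1) and 3 without the Th2 stimulated pair. edgeR on reads recovered from the values of 7 libraries called 0 of the 6 and 2186 genes in all, and DESeq2 called 2, without Zfp36l1.

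**Figure D2:**
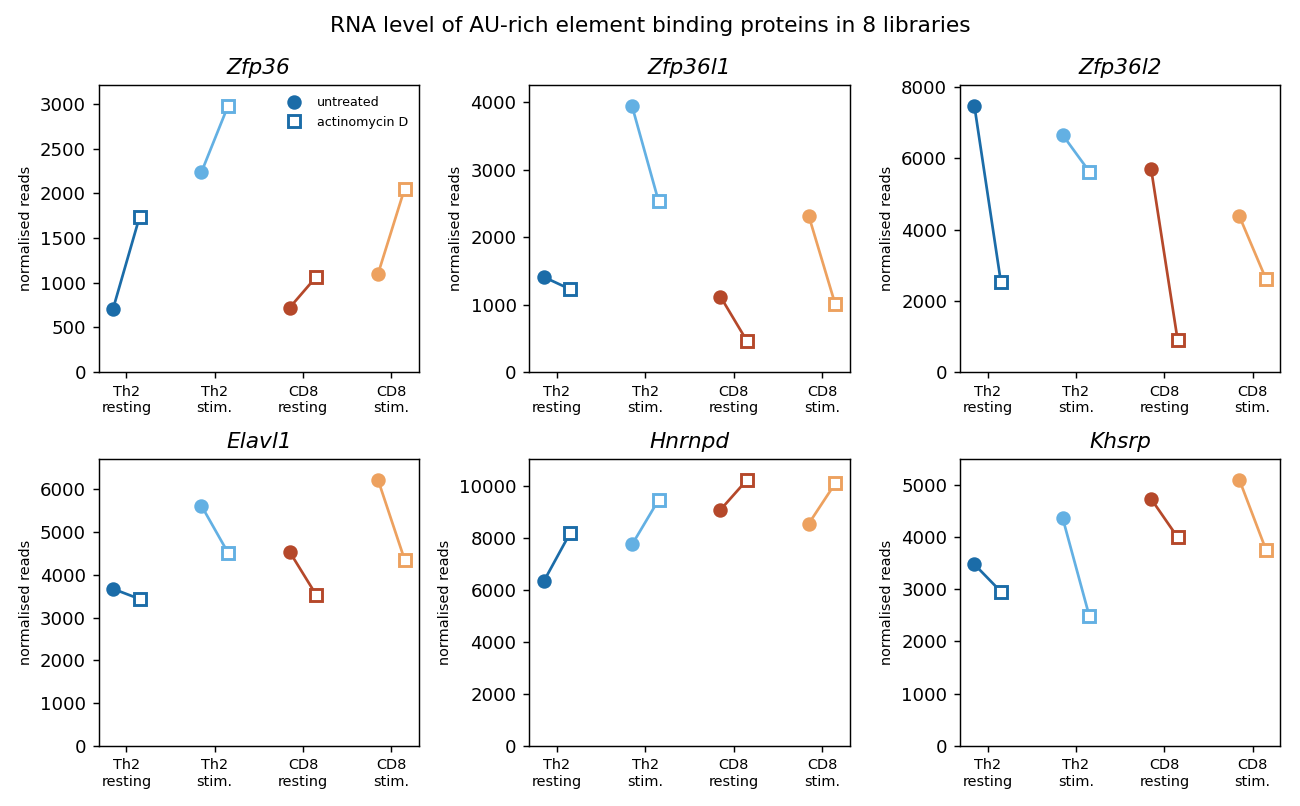
RNA level of each gene in every RNA-seq library, in normalised reads. Filled circles are untreated and open squares actinomycin D libraries, joined for each cell type and state (stim., stimulated), 1 library per point. Zfp36 rises with the drug in all 4 pairs and Zfp36l1 and Zfp36l2 fall in all 4, with the steepest Zfp36l2 drop from 5708 to 905 in resting CD8 cells.

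The opposite movements changed the make-up of the family, and ratios within a library do not depend on how libraries were scaled. Of the summed ZFP36 family reads per kilobase, Zfp36 made up 8.94% in resting and 20.01% in stimulated untreated Th2 libraries, and 11.5% and 16.4% in the CD8 libraries. With actinomycin D its share was 35.7% and 30.4% in Th2 and 48.2% and 40.6% in CD8 libraries. The treated and untreated shares of Zfp36 did not overlap. Zfp36l2 made up 74.5% and 71.9% in the resting untreated libraries of Th2 and CD8 cells, and 40.8% and 32.3% in their resting treated libraries. In stimulated cells its share was 47.1% untreated and 45.5% treated in Th2, and 51.4% and 40.9% in CD8 cells. The log2 ratio of Zfp36 to Zfp36l2 was higher with the drug in all 4 pairs, by 2.09 ± 1.18 (SD, n = 4), and that of Zfp36 to Zfp36l1 in all 4, by 1.62 ± 0.46. The ratio of Zfp36l1 to Zfp36l2 was higher in 2 of 4 pairs, both resting, with differences from -0.47 to 1.38. Shares between genes depend on the transcript lengths used, whereas the changes of the ratios do not.

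**Figure D3:**
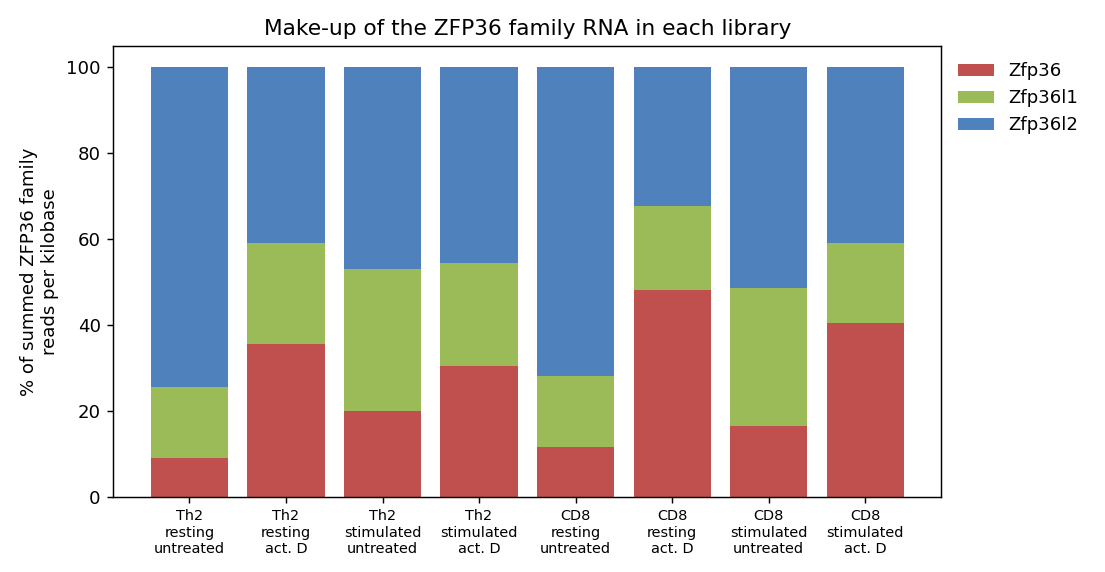
Share of each ZFP36 family gene in the summed family reads per kilobase of the longest coding transcript (percent, stacked to 100), for the 8 RNA-seq libraries (act. D, actinomycin D). Zfp36 takes 8.94% to 20.01% without and 30.4% to 48.2% with the drug, and Zfp36l2 takes over 70% only in the untreated resting libraries.

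Stimulation was compared in untreated cells, where Zfp36l1 was the only member called. It rose from 1410 to 3944 normalised reads in Th2 and from 1120 to 2317 in CD8 cells, a log2 difference of 1.27 ± 0.17 (SE, adjusted p = 0.0351, limma). Zfp36 was higher in both cell types, 708 against 2237 in Th2 and 722 against 1100 in CD8, but the 2 changes were unequal and the difference of 1.13 ± 0.29 missed the threshold (adjusted p = 0.0757). Elavl1 was at 3671 against 5618 in Th2 and 4535 against 6219 in CD8 cells (0.53 ± 0.13, adjusted p = 0.0653). Zfp36l2 was lower after stimulation in both (-0.28 ± 0.13, adjusted p = 0.202), and Khsrp and Hnrnpd differed by 0.22 ± 0.13 and 0.10 ± 0.15 (adjusted p = 0.292 and 0.647). Of all genes tested, 11.3% were called, 6.59% higher and 4.69% lower, or 723 higher and 515 lower (540 and 2808 when scaled to ribosomal protein genes, with the median gene at -0.34). This fit has 4 libraries and 1 residual degree of freedom, and without the minimum on low values it called 3 members, Zfp36 and Elavl1 besides Zfp36l1.

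Over all 8 libraries, stimulated libraries were higher for Zfp36l1 by 1.17 ± 0.19 and for Zfp36 by 1.00 ± 0.18, higher in 4 of 4 matched comparisons each, and for Elavl1 by 0.44 ± 0.11, also in 4 of 4. None passed (adjusted p = 0.0931, 0.117 and 0.211, limma), in a comparison where 0.118% of genes were called. The unadjusted p was under 0.05 for 1610 genes. DESeq2 on the recovered reads called 428 genes, Zfp36 and Zfp36l1 among them, and edgeR called 3.

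Whether the stimulation response depended on the drug was tested by an interaction, which Zfp36l2 alone passed. Without the drug, stimulated cells held slightly less Zfp36l2 than resting cells, by -0.17 log2 in Th2 and -0.38 in CD8. With the drug they held more, by 1.16 in Th2 and 1.53 in CD8, that is from 2515 to 5632 and from 905 to 2617 normalised reads. Stimulated cells thus kept a larger share of Zfp36l2 RNA under actinomycin D than resting cells of either type. The difference between the stimulation changes was 1.62 ± 0.35 (adjusted p = 0.0290, limma), with 14.5% of all genes called, 7.06% higher (775 genes) and 7.44% lower (816 genes). Under scaling to ribosomal protein genes the median gene moved to 0.62 and the calls to 4207 and 300, with Zfp36l2 still called. That shift goes in the direction of the Zfp36l2 difference, so this call is no check of it. The call was lost when any of 5 libraries was left out, namely Th2 resting untreated, Th2 stimulated actinomycin D, CD8 resting untreated, CD8 resting actinomycin D or CD8 stimulated actinomycin D, and in edgeR, while the difference stayed between 1.23 and 2.01 without any 1 library.

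The other members gave no such difference past the threshold. Zfp36 and Zfp36l1 were higher after stimulation with and without the drug, and the interaction was -0.27 ± 0.33 for Zfp36 and -0.18 ± 0.37 for Zfp36l1 (adjusted p = 0.596 and 0.755). Their intervals, -1.05 to 0.51 and -1.05 to 0.68, are wider than the stimulation difference itself. Khsrp was higher after stimulation in both untreated comparisons and lower in both treated ones (-0.38 ± 0.19, adjusted p = 0.193). Elavl1 and Hnrnpd were at -0.18 ± 0.19 and -0.0079 ± 0.20 (adjusted p = 0.524 and 0.981). The sign of the interaction of each of these 5 members turned when libraries were scaled to ribosomal protein genes.

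**Figure D4:**
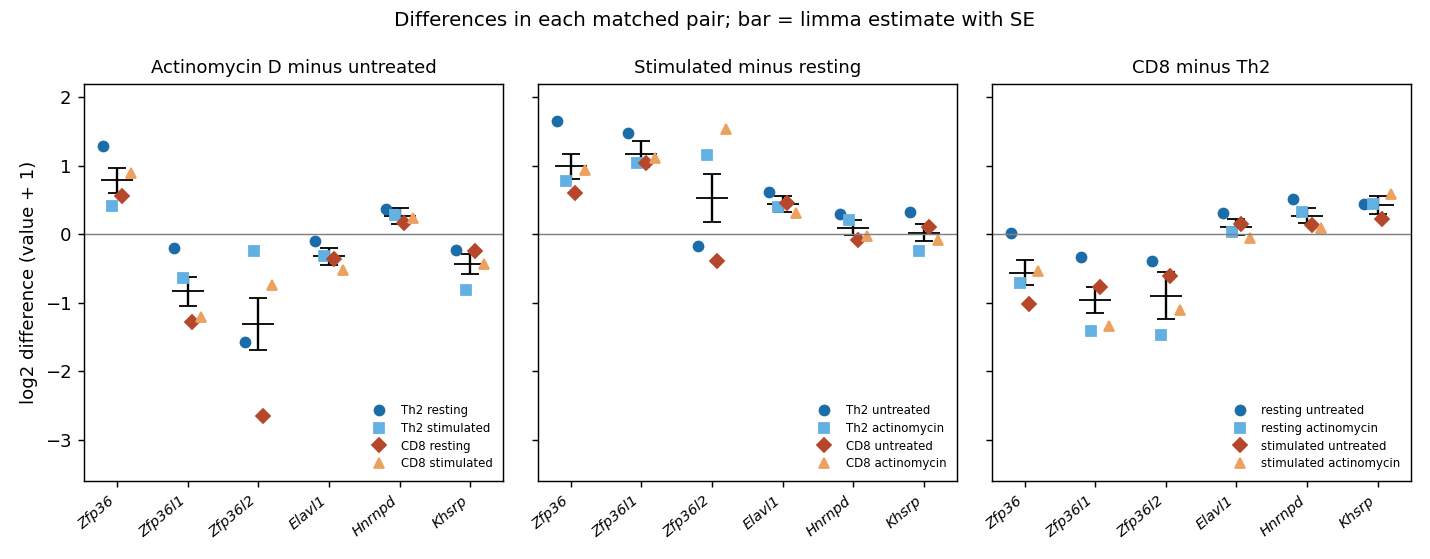
Log2 differences, on the scale log2(value + 1), of each gene in the 4 matched comparisons for the drug, stimulation and cell type (points, 1 per matched pair), with the limma estimate and its SE (bar). In the middle panel Zfp36l2 lies below 0 in both untreated comparisons and above 1 in both actinomycin D comparisons, while Zfp36 and Zfp36l1 lie above 0 in all 4.

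CD8 cells held less Zfp36l1 than Th2 cells in each of the 4 matched conditions, 1120 against 1410 and 2317 against 3944 untreated, and 462 against 1228 and 1004 against 2533 with the drug. The log2 difference was -0.96 ± 0.19 (SE, adjusted p = 0.0115, limma), and 21.5% of all genes were called, 9.97% higher and 11.5% lower in CD8 cells. The gap was wider with the drug, at -1.41 and -1.33, than without it, at -0.33 and -0.77, a contrast that was not tested. Zfp36l2 was also lower in all 4 conditions (-0.89 ± 0.35, adjusted p = 0.112), and Zfp36 in 3 of 4 (-0.56 ± 0.18, adjusted p = 0.0659), the exception being resting untreated cells at 0.026. Khsrp was higher in CD8 cells in all 4 (0.43 ± 0.13, adjusted p = 0.0527), as was Hnrnpd (0.27 ± 0.11, adjusted p = 0.129), and Elavl1 in 3 of 4 (0.11 ± 0.11, adjusted p = 0.536). The ZFP36 members and the other 3 genes thus leaned to opposite cell types, with 1 call among the 6.

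Markers of some other cells moved with this comparison, while the myeloid sums overlapped. The 5 myeloid markers found summed to 160 to 479 normalised reads in Th2 and 114 to 460 in CD8 libraries. The 5 B cell markers summed to 731 to 858 normalised reads in Th2 and 136 to 231 in CD8 libraries, with Pax5 near 0 in the latter. The 3 NK markers summed to 276 to 399 in Th2 and 4534 to 5288 in CD8 libraries, nearly all from Klrd1, and Ncr1 stayed at 11.9 and 1.35 on average. The 3 stromal markers summed to 1173 to 1916 in Th2 and 350 to 776 in CD8 libraries, nearly all from Pecam1, with Cdh5 at 1.01 on average in Th2 and at 0 in CD8 libraries. Their part in the differences was not tested. With the matched state and drug as a block, limma called 4 members, Zfp36, Zfp36l1 and Zfp36l2 lower and Khsrp higher, where 36.8% of all genes were called. Leaving out 1 library gave 1 to 3 calls, with 2 without the CD8 resting untreated or the Th2 resting untreated library and 3 without the Th2 stimulated untreated library.

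No member was called for a difference between the cell types in its response to stimulation. The interaction ranged from -0.44 ± 0.36 for Zfp36 to 0.075 ± 0.76 for Zfp36l2, and the interval of the latter was wide, from -1.75 to 1.90. limma called 0 of all genes here (0%), with 27 at an unadjusted p under 0.05, edgeR called 0 with 396 such genes, and DESeq2 called 16, no member among them.

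The proteins around these 6 were followed in lists of related genes. Of 13 tested other AU-rich element binding proteins, 2 were higher and 5 lower with actinomycin D, with a median of -0.17 (0.0015 over all genes), where 16.8% of all genes were higher and 21.9% lower. Tia1, a translational silencer, rose by 0.93, and Ybx1, a cold shock domain protein that binds mRNA, by 0.61, but when scaled to ribosomal protein genes they were at 0.31 and -0.0095 and neither was called. Rc3h1 (Roquin-1), which binds stem-loops in 3′ UTRs, fell by 0.67 on the log2 scale, and Fubp1, a KSRP relative, fell by 0.61. Neither was called in edgeR or DESeq2, and Tia1 and Ybx1 were called in DESeq2 but not in edgeR. Leaving out 1 of the 4 pairs lost the call in 2 cases each for Tia1, Rc3h1 and Fubp1 and in 3 for Ybx1. With stimulation in untreated cells 1 of the 13 was called (11.3% of all genes), Tia1, which fell by 0.95. No gene of this list was called between cell types (21.5% of all genes) or in the interaction with the drug (14.5%) or with cell type (0%).

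Of 24 kinases, phosphatases and partners of these proteins, 1 was higher and 6 lower with the drug (16.8% and 21.9% of all genes), with a median of -0.27. Mapk3 (ERK1) rose by 0.97 (0.35 and not called when scaled to ribosomal protein genes), Dusp1, the phosphatase that switches off p38, fell by 1.51 and Ywhag, a 14-3-3 protein, fell by 1.04. In stimulated untreated cells 3 were higher and 1 lower (6.59% and 4.69% of all genes), with a median of 0.24 (0.034 over all genes). Mapk11 (p38 beta) rose by 2.01 and the DNA damage kinase Atm fell by 1.26. The stimulation change differed with the drug for 6 of the 24 (14.5% of all genes), higher for Chek2 (1.41) and Atm (1.37) among 2 and lower for Mapk11 (-2.27) and Akt2 (-1.21) among 4. Of the 8 libraries, leaving out any of 6 lost the call of Chek2, any of 5 that of Atm, any of 4 that of Akt2 and any of 2 that of Mapk11. In edgeR Chek2, Akt2 and Mapk11 were not called. Between cell types, where 9.97% of all genes were higher and 11.5% lower, 3 were higher in CD8 cells, led by the 14-3-3 genes Ywhae (0.73) and Ywhaz (0.50). Mapk3 alone was lower (-0.43). Ywhaz and Mapk3 were not called when scaled to ribosomal protein genes, and Mapk3 lost its call without any of 6 of the 8 libraries.

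The genes of the decay machinery that were called with the drug were all lower. Of 34 deadenylation, decapping and exosome genes tested, 15 were lower and 0 higher, with a median of -0.34, where 21.9% of all genes were lower. Btg1 and Tob2, which bring the deadenylase to mRNAs, fell by 1.87 and 1.83. With stimulation of untreated cells Btg1 rose by 1.49 and the 5′ exonuclease Xrn1 fell by 0.80. They were the only 2 called (median 0.082), where 11.3% of all genes were called. The interaction called Xrn1 (1.11) and the decapping scaffold Edc4 (-0.76), where 14.5% of all genes were called. Xrn1 lost its call without any of 5 of the 8 libraries and Edc4 without any of 7. When scaled to ribosomal protein genes, Edc4 was at -0.13 and not called. Between cell types 4 were higher in CD8 cells (9.97% of all genes), led by the exosome subunit Exosc9 (0.65) and the exosome nuclease Dis3 (0.55). The deadenylase subunit Cnot6l alone was lower (-0.75, with 11.5% of all genes lower). Exosc9, Dis3 and Cnot6l were not called when scaled to ribosomal protein genes. Dis3 lost its call without any of 6 of the 8 libraries and Cnot6l without any of 4.

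The mRNAs that carry AU-rich elements had the largest median change of the 4 lists with both stimulation and the drug. This list holds many inducible cytokine and early response genes and was chosen with earlier results of these data known. Its rank among the lists is therefore a description and no test. Of 38 tested, 24 were higher and 1 lower in stimulated untreated cells, with a median of 2.41, where 6.59% of all genes were higher and 4.69% lower. Il2, a T cell growth factor, rose by 7.94, Il3, a haematopoietic cytokine, rose by 7.75 and Bcl2, which blocks apoptosis, fell by 1.03. With actinomycin D, 14 were lower and 1 higher (median -1.22), where 21.9% of all genes were lower and 16.8% higher. Nfkbia, an inhibitor of NF-kB, was at -4.49 and Bhlhe40, a transcription factor, at -3.87. Bcl2 was at 1.13 (0.51 and not called when scaled to ribosomal protein genes). The interaction of stimulation and drug was called negative for 14, led by Il2 (-7.59) and Ptgs2, the inducible cyclooxygenase (-6.51), and positive for Bcl2 alone (7.44% and 7.06% of all genes). Il2, Ptgs2 and Bcl2 each lost the call without any of 5 of the 8 libraries, with Il2 between -9.47 and -5.71. Ptgs2 was at -4.40 and not called with a pseudocount of 10. Over all libraries 5 were higher with stimulation (0.118% of all genes), led by the cytokine Il10 (3.15) and the kinase Pim3 (3.07). Between cell types 2 were higher in CD8 cells (9.97% of all genes), Ifng (6.18) and the cyclin Ccnd3 (0.99). A further 10 were lower (11.5% of all genes), led by the Th2 cytokines Il13 (-8.22) and Il4 (-7.63). Ccnd3 lost its call when scaled to ribosomal protein genes and without any of 4 of the 8 libraries.

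The genes whose levels followed each member most closely are given as a description over the same 8 libraries, which share cell type, stimulation and drug. Zfp36 was followed by Isca2, Rhbdd1 and Frrs1 (Pearson r = 0.97, 0.94 and 0.94). Zfp36l1 was followed by Srpr, Aggf1 and Tmem156 (0.98, 0.96 and 0.96), Zfp36l2 by Mb21d1, Yes1 and Lrp6 (0.99, 0.98 and 0.98) and Elavl1 by Trak2, Dcun1d5 and Rgs16 (0.99, 0.99 and 0.98). Hnrnpd was followed by Naca, Cnih1 and Atrnl1 (0.96, 0.95 and 0.95) and Khsrp by Snrnp40, Grpel1 and Srsf2 (0.98 each). No member was among the 3 closest genes of another. Within the set r was highest between Zfp36l1 and Zfp36l2 (0.79) and lowest between Zfp36l2 and Hnrnpd (-0.64).

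Reads of the members could be shared with few other loci. The share of 50-base words also found in another annotated gene was 0 for Zfp36l2 and Elavl1 and at most 3.12%, for Zfp36l1 with its pseudogene Zfp36l1-ps. Each member has an annotated gene on the plus strand that overlaps it, and no source states whether the counting used strand. Among such partners in the table, Gm26669 averaged 2.70% of the Zfp36l1 level and Gm17092 averaged 0.0695% of the Hnrnpd level.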

How the data were processed

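Per the labels and methods, RNA-seq reads were aligned to mm10 with STAR; how genes were counted, on which annotation and strand, was not stated. The deposited table holds a signal per gene that the authors normalised: gene reads divided by 1 factor per library (all values came out whole within 0.01 of a read), although the methods name FPKM. GCLiPP reads were aligned with Bowtie2 to mm10, deduplicated, pooled over libraries, and searched for peaks in 3′ UTRs; the deposited peak score has no stated meaning.

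limma 3.58.1 (trend) was fitted on log2(value + 1) for the 10972 genes with a mean of at least 50, of 43432; all 6 members passed. Adjusted p-values are Benjamini-Hochberg over all genes tested, with a threshold of 0.05. Fold changes on this scale understate changes of low genes. There is 1 library per condition, so matched libraries of other conditions stand in for replicates and p-values measure the spread between them. edgeR 4.0.16 and DESeq2 1.42.0 were run on reads recovered from 7 libraries. The fits were tested on simulated data. Sequences were read through GENCODE M21 transcripts, and 1-based coordinates are mm10. Named list genes were the up to 2 called genes with the largest change per direction, list and comparison (1 such gene is not reported here), and like genes the 3 with the highest Pearson r. The members and lists were chosen with earlier results of these data known. R 4.3.3 and Python 3.11.15 were used.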

Additional observations from a re-analysis of the deposited data

Results flagged for a closer look

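Zfp36l2 stood out because its response to stimulation differed with actinomycin D: the interaction was 1.62 on the log2 scale (adjusted p = 0.0290, limma). The stimulation difference was -0.17 in Th2 and -0.38 in CD8 cells without the drug, and 1.16 and 1.53 with it, in 2 of 2 cell types each. In none of the 18 sets of 4 matched differences, 1 per member and comparison, did a single value lie beyond Dixon's 95% limit, where chance would exceed it in about 1 set of 20.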

How the results depend on the processing

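The 6 members were called as follows under other settings. For actinomycin D the count was 3 as reported, 3 with quantile normalisation (Hnrnpd in place of Zfp36l2), 2 with DESeq2 (Zfp36 and Zfp36l2), 0 with edgeR, 5 with no pair block and 0 to 3 without 1 pair. For stimulation in untreated cells it was 1 as reported, 3 without the minimum on low values, and 2 with ribosomal protein scaling or DESeq2; leaving out a library left no residual degrees of freedom and was not run. For stimulation over all libraries it was 0 as reported and 2 with DESeq2. For the interaction of stimulation and drug it was 1 as reported, 0 with edgeR and 0 to 1 without 1 library. For cell type it was 1 as reported, 2 with quantile normalisation, 4 with the matched state and drug as a block and 1 to 3 without 1 library.

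Directions turned as follows, in log2 differences. With ribosomal protein scaling they were -0.35 for Hnrnpd and -0.0095 for Ybx1 (drug), -0.27 for Hnrnpd and -0.16 for Khsrp (stimulation, untreated), -0.029 for Khsrp (stimulation, all libraries), 0.36 for Zfp36, 0.45 for Zfp36l1, 0.45 for Elavl1, 0.63 for Hnrnpd and 0.25 for Khsrp (stimulation by drug), and -0.029 for Zfp36l2 (stimulation by cell type). With quantile normalisation they were -0.10 for Hnrnpd (stimulation, untreated), -0.0038 for Hnrnpd and -0.092 for Khsrp (stimulation, all libraries), 0.20 for Hnrnpd (stimulation by drug) and 0.0025 for Khsrp (stimulation by cell type). With edgeR they were 0.093 for Zfp36l1 and 0.15 for Hnrnpd (stimulation by drug), and 0.062 for Zfp36l1, -0.56 for Zfp36l2 and 0.0056 for Elavl1 (stimulation by cell type). With DESeq2 they were 0.046 for Zfp36l1 and 0.099 for Hnrnpd (stimulation by drug), and 0.059 for Zfp36l1 and -0.55 for Zfp36l2 (stimulation by cell type). Without 1 library they spanned 0 for Khsrp with stimulation (-0.073 to 0.11), for the drug interaction of Zfp36 (-0.66 to 0.12), Zfp36l1 (-0.60 to 0.23) and Hnrnpd (-0.18 to 0.16), and for the cell type interaction of Zfp36l1 (-0.60 to 0.24), Zfp36l2 (-0.83 to 0.98), Elavl1 (-0.28 to 0.025) and Khsrp (-0.28 to 0.22). Of these, only Ybx1 had been called. The causes were not tested, apart from the shift of all genes that ribosomal protein scaling brings.

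Counts over all genes moved by more than 1.5 times in these cases. For the drug 4245 became 2186 with edgeR and 2216 to 4051 without 1 pair. For stimulation in untreated cells 1238 became 4365 without the minimum, 3348 with ribosomal protein scaling and 2030 with DESeq2. For stimulation over all libraries 13 became 21 without the minimum, 3 with edgeR, 428 with DESeq2, 6 with the matched cell type and drug as a block and 3 to 12 without 1 library. For stimulation by drug 1591 became 940 without the minimum, 4507 with ribosomal protein scaling, 321 with edgeR and 25 to 3315 without 1 library. For cell type 2358 became 1549 with ribosomal protein scaling, 4037 with the matched state and drug as a block and 1466 to 2484 without 1 library, and for stimulation by cell type 0 became 16 with DESeq2. edgeR and DESeq2 used 7 libraries where CD8 stimulated actinomycin D belonged to the comparison. The share of member peaks with ATTTA was 11.9% and 7.14% in the upper part of the scores; a window of 70 bases is the deposited peak itself and gave no other value. No paired analysis was possible because the GCLiPP libraries that share replicate numbers were pooled in the peak list and the RNA-seq groups have 1 library each. That concerns replicate numbers; the matched libraries of different conditions were paired as described.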
